A study of Mus musculus with 10 samples.

Results

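The cytochrome P450 3a (Cyp3a) subfamily was followed across 10 mouse livers, those of untreated mice and of mice with models of inflamed bile ducts. The members were the 8 genes Cyp3a11, Cyp3a13, Cyp3a16, Cyp3a25, Cyp3a41a, Cyp3a41b, Cyp3a44 and Cyp3a59, found as the rows of the deposited expression table that carry one of these symbols, alone or within a merged symbol. Of the 8, 6 matched a row, each with a single symbol, and Cyp3a41a and Cyp3a41b were not analysed here. In all there were 59408 gene models, 23454 of them with a symbol. All 6 matched members passed the filter on low values. Rows were matched by symbol alone, but the members were chosen with earlier results of these data known.

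All mice were wild-type C57BL/6, and every liver was collected at day 35. The 4 control mice (numbered 1 to 4 in the labels) were untreated. The 3 mice of the model of autoimmune primary biliary cholangitis (PBC; mice 7, 8 and 9) were immunised intraperitoneally with 100 µg of 2-octynoic acid coupled to bovine serum albumin (2OA-BSA), in complete Freund's adjuvant on day 0 and with incomplete Freund's adjuvant on days 14 and 28. They also received 2 µg of α-galactosylceramide, a glycolipid that activates natural killer T cells, intravenously with the first pair of injections. The 3 mice of the non-autoimmune model of primary sclerosing cholangitis (PSC; mice 11, 13 and 14) ate a diet with 0.089% 3,5-diethoxycarbonyl-1,4-dihydrocollidine (DDC), a porphyrinogenic compound that injures bile ducts, for 2 weeks, then regular food for 1 week, then DDC for 1 week. By these stated times the second DDC week ended before collection. The labels name no control with adjuvant or glycolipid alone, so these agents and the antigen cannot be told apart within the PBC group, and DDC acts on heme metabolism in hepatocytes as well as on bile ducts. The labels give neither sex nor age. Reads of the Y-linked genes Ddx3y, Eif2s3y, Kdm5d and Uty numbered 0 in all 10 libraries, while Xist had 416 to 3710 reads.

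Cyp3a enzymes are heme proteins of the endoplasmic reticulum that oxidise steroids, bile acids and a large share of drugs, mainly in hepatocytes. They take electrons from the reductase Por, and their best known member in mouse liver, Cyp3a11, is the textbook target of the pregnane X receptor (PXR, encoded by Nr1i2), which binds bile acids and many drugs, and of the constitutive androstane receptor (CAR, encoded by Nr1i3). Cyp3a16, Cyp3a41a, Cyp3a41b and Cyp3a44 are known as genes of young or female mice, whose liver expression follows the sex-specific rhythm of growth hormone. Cyp3a13 stands apart from the other genes on the chromosome and is known for its expression in the intestine as well as in the liver.

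On the mm10 build the members lie on chromosome 5 in 2 places. Cyp3a13 (gene model GSMG0031252, 137892933 to 137921620, minus strand) stands alone. The other 5 form a cluster in the order Cyp3a16 (GSMG0031355, 145436309 to 145469723, minus), Cyp3a44 (GSMG0031358, 145773983 to 145805874, minus), Cyp3a11 (GSMG0031359, 145854426 to 145879865, minus), Cyp3a25 (GSMG0031360, 145977194 to 146009619, minus) and Cyp3a59 (GSMG0051997, 146079258 to 146113285, plus). The promoters of Cyp3a16 and Cyp3a44, the members that fell in the PSC livers, and of Cyp3a11, which rose there, are shown as the 250 bases before the start site, from RefSeq on GRCm38.p6 (mm10). The windows, all on the minus strand, are chr5:145469724-145469973 for Cyp3a16, chr5:145805875-145806124 for Cyp3a44 and chr5:145879855-145880104 for Cyp3a11. Capitals mark the nuclear receptor hexamers AGGTCA and AGTTCA, searched on both strands, so that TGACCT and TGAACT are the same sites read from the other strand.
Cyp3a16: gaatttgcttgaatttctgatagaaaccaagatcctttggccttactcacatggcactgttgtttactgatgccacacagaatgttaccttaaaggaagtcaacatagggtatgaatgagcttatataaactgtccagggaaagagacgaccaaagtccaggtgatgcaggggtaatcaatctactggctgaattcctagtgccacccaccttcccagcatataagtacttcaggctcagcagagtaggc
Cyp3a44: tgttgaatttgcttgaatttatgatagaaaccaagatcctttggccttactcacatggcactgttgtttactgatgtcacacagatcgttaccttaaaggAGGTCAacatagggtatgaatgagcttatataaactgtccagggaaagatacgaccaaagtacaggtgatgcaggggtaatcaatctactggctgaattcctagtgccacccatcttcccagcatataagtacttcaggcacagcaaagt
Cyp3a11: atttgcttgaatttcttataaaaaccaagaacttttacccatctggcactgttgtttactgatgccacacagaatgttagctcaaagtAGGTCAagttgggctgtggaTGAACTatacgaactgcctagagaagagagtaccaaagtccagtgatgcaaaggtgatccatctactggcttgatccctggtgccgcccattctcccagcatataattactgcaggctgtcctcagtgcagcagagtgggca
Over these 250 bases the promoter of Cyp3a16 was 92.9% identical to that of Cyp3a44 and 76.2% identical to that of Cyp3a11, while Cyp3a44 and Cyp3a11 shared 71.7%. In this window Cyp3a11 holds AGGTCA and, on the other strand, AGTTCA. Cyp3a44 holds AGGTCA only, and Cyp3a16 holds neither. RefSeq promoters of 300 bases (250 before to 50 after the start) of all genes held AGGTCA in 16.3% and AGTTCA in 14.0% of 32851 windows. The RefSeq promoters of all 8 members were found. An everted repeat of these hexamers with 6 bases between them, a direct repeat with 3 or 4 bases between, the STAT site TTCNNNGAA and the HNF1 motif GTTAAT were in none of the members' windows. The STAT site was in 8.30% and the HNF1 motif in 7.10% of all windows.

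The members resemble each other, so reads can be ambiguous. Of all 75-base stretches of the longest GENCODE transcript of each gene, the read length used here, 100% were found in no other gene for Cyp3a13, 98.4% for Cyp3a16, 96.3% for Cyp3a11, 89.2% for Cyp3a59, 89.0% for Cyp3a44 and 88.8% for Cyp3a25. Cyp3a25 and Cyp3a59 are 96.6% identical over their transcripts. For Cyp3a41a and Cyp3a41b only 4.73% and 9.10% of stretches were their own. The treatment of reads that fit several genes is not given in the sources used here. Values of all members except Cyp3a13 carry this uncertainty, most of all those of Cyp3a25, Cyp3a59 and Cyp3a44.

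Levels are normalised reads, that is, reads per gene model divided by the authors' DESeq2 size factor for the library. Library depth, recovered from the values, was 38272053 to 95422289 reads. Changes are log2 fold changes on the scale of log2(value + 1), with their standard error (SE), and adjusted p is from limma with Benjamini-Hochberg adjustment over all 18390 genes tested. A gene was called at an adjusted p under 0.05. The median log2 change of all genes tested was 0.01 in PBC and 0.06 in PSC against control. The markers of hepatocytes (Alb, Apoa1, Apob, Ttr, Tat and Cps1) were all present, and their summed level was 8060771 to 9343173 in controls, 8296306 to 12243272 in PBC and 5367867 to 6456039 in PSC livers.

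Among the 6 matched members, Cyp3a11 was the most abundant in untreated liver and Cyp3a16 and Cyp3a44 were the most variable. Compared per kilobase of transcript, mean control levels were 76549 ± 12493 normalised reads per kb for Cyp3a11 (SD, n = 4), 13349.5 ± 2703 for Cyp3a25, 6894 ± 5120 for Cyp3a44, 3453 ± 3021 for Cyp3a16, 3154 ± 827 for Cyp3a13 and 2368 ± 798 for Cyp3a59. The ranges of Cyp3a11 did not overlap with those of any other member, whereas Cyp3a44 overlapped with every other gene in this order except Cyp3a11, and the levels of Cyp3a16, Cyp3a13 and Cyp3a59 lay within one another's spread. Among the control livers the highest level was 1.44 times the lowest for Cyp3a11, 1.56 times for Cyp3a25, 1.84 times for Cyp3a13 and 2.09 times for Cyp3a59. For Cyp3a44 it was 10.8 times and for Cyp3a16 92.6 times the lowest, against a median of 1.61 times over the 5772 gene models with a control mean of at least 1000. Of those models, 29 had a wider ratio than Cyp3a44 and 3 a wider ratio than Cyp3a16. Control 3 was the lowest control for both genes.

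**Figure D1:**
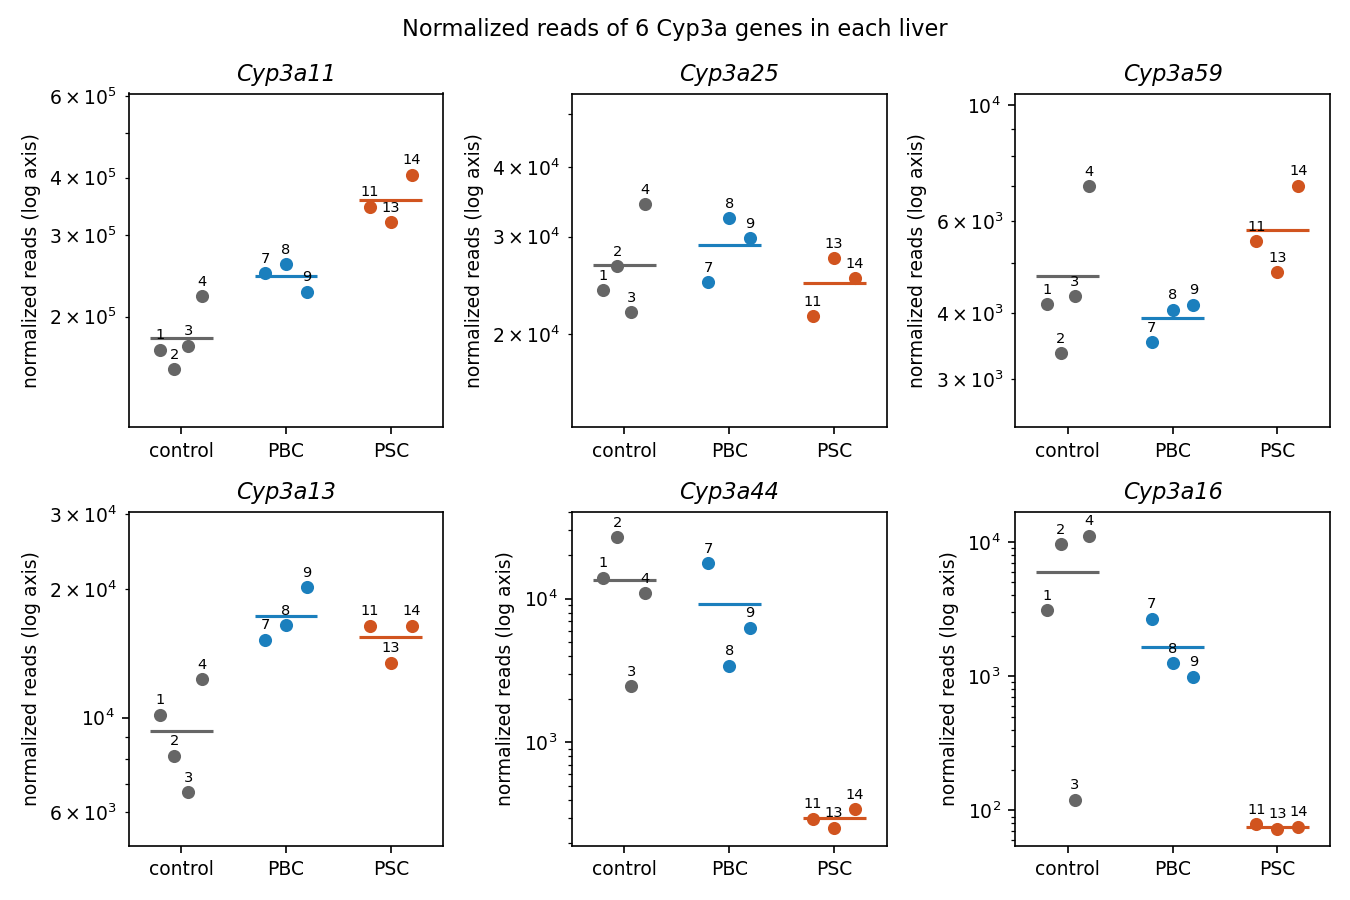
Normalised reads (log axis) of the 6 Cyp3a genes in each liver by group. Points are single livers, numbered as in the labels, and lines are group means. Cyp3a16 and Cyp3a44 sit at 72.8 to 78.8 and 256 to 343 in the 3 PSC livers, below every control and PBC liver, while Cyp3a11 is highest in the PSC livers.

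The comparison of PSC with untreated livers asked how the DDC model changed the subfamily. Of the 6 members, 2 fell (Cyp3a16 and Cyp3a44), 2 rose (Cyp3a11 and Cyp3a13) and 2 were not called (Cyp3a25 and Cyp3a59). Of all genes tested, 6.48% were called lower and 8.25% higher in this comparison. The median log2 change of the members was 0.12, and the groups did not overlap for the 4 called members, against 31.5% of all genes tested.

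Cyp3a16, known as a fetal and female form, had 3091, 9563, 120 and 11119 normalised reads in controls 1 to 4 and 78.8, 72.8 and 75.6 in PSC 11, 13 and 14. Controls 1, 2 and 4 were high, control 3 was close to the PSC livers, and the PSC livers were nearly equal. Cyp3a16 fell by 5.03 on the log2 scale (SE 1.13, adjusted p = 0.0111, limma), and was called lower in all 19 alternatives that were run. The size rested on single controls and on the test. It was -6.49 without control 3, -4.39 without control 2 and -4.32 without control 4, and -6.33 with edgeR and with DESeq2 on recovered reads. The lowest library held 45 reads of the gene. Of its 75-base stretches, 1.63% also occur in Cyp3a11, which stood at 320397 to 405728 normalised reads in the PSC livers, and what part of the remaining Cyp3a16 reads came from Cyp3a11 was not tested.

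Cyp3a44, a female-predominant form, had 13985, 26703, 2470 and 10946 normalised reads in controls 1 to 4 and 295, 256 and 343 in PSC 11, 13 and 14. Every PSC liver lay well below the lowest control, which was again control 3. The fitted fall was 5.08 on the log2 scale (SE 0.65, adjusted p = 0.000346, limma), called in 19 of 19 alternatives, and -5.75 without control 3. In these bulk samples, fewer cells of a type and less RNA per cell cannot be told apart. The summed hepatocyte markers were also lower in the PSC livers (5367867 to 6456039 against 8060771 to 9343173 in controls), with 0 of 6 marker genes called lower by limma (1 at an unadjusted p under 0.05, and 2 each by edgeR and DESeq2). The median log2 change of these 6 genes in PSC was -0.11 (all genes 0.06). Their part in these falls was not tested.

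Cyp3a11, the main drug-metabolising member, moved the other way. It had 169545, 153700, 172968 and 221513 normalised reads in controls 1 to 4 and 345880, 320397 and 405728 in the PSC livers. The PSC livers were all above the highest control. The rise was 1.00 on the log2 scale (SE 0.23, adjusted p = 0.0112, limma). Without PSC 14 the adjusted p was 0.0744, and with every gene above 0 tested it was 0.0683.

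Cyp3a13 had 10166, 8146, 6685 and 12299 normalised reads in controls 1 to 4 and 16432, 13446 and 16406 in the PSC livers. The ranges did not overlap, with PSC 13 close to control 4. The log2 change was 0.76 (SE 0.22, adjusted p = 0.0348, limma), and 11 of 19 alternatives called it. The call was lost without any 1 of controls 1, 2 and 3 or of the 3 PSC livers (highest adjusted p 0.143, without PSC 14), with no filter (0.0522) and with equal totals (0.0713). Markers of the intestinal epithelium, where Cyp3a13 is also expressed, summed to 12917 to 27009 in controls, 4777 to 11504 in PBC and 14940 to 28177 in PSC livers. Of the 6, 4 were tested. Fabp2 was called lower in PBC (log2 change -1.23, adjusted p = 0.0365, limma) and Cdh17 higher in PSC (3.98, adjusted p = 0.0237). The call of Fabp2 was lost without any 1 of PBC 8, PBC 9, PSC 13, control 3 and control 4. The call of Cdh17 was lost without control 1, and without any 1 PSC liver this gene did not pass the filter on low values. Of the other pair, Alpi was at 0 in every library and Cdx2 in all but PSC 14 (3.29 normalised reads). The sums thus came almost wholly from the 4 tested genes, and how specific these are to the intestine was not tested. The part of such cells in the level of Cyp3a13 was not tested.

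Cyp3a25, a form known to hydroxylate steroids, had 24011, 26558, 21933 and 34295 normalised reads in controls 1 to 4, 24835, 32402 and 29806 in PBC 7 to 9, and 21548, 27402 and 25214 in the PSC livers. The 3 groups overlapped throughout. Its log2 change was -0.10 in PSC (SE 0.20, adjusted p = 0.784) and 0.13 in PBC (SE 0.20, adjusted p = 0.719, limma). Cyp3a59, its near copy, had 4170, 3354, 4317 and 7010 normalised reads in controls 1 to 4, 3529, 4064 and 4156 in PBC, and 5500, 4792 and 7017 in PSC livers. Control 4 was as high as the highest PSC liver. Its log2 change was 0.33 in PSC (SE 0.24, adjusted p = 0.380) and -0.22 in PBC (SE 0.24, adjusted p = 0.604, limma).

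**Figure D2:**
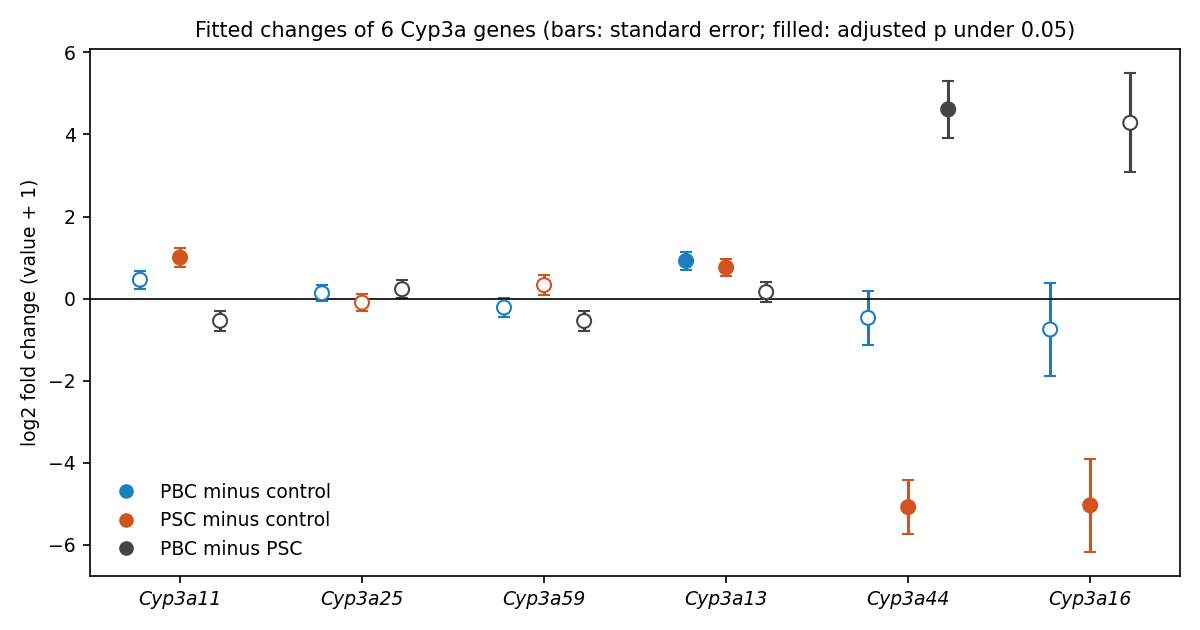
Log2 fold change of each Cyp3a gene in the 3 comparisons. Bars are standard errors, and filled points have an adjusted p under 0.05 (limma). Cyp3a44 at -5.08 and Cyp3a16 at -5.03 in PSC lie far from the other members, and Cyp3a13 is the filled point in PBC against control.

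The comparison of PBC with untreated livers asked the same of the autoimmune model. Of the 6 members, 1 rose (Cyp3a13) and 0 fell by limma. At an unadjusted p under 0.05, and by edgeR and DESeq2, the numbers were the same. Among all genes tested, 7.60% were called higher and 2.34% lower. The median log2 change of the members was -0.04, and the groups did not overlap for Cyp3a13 and Cyp3a11, that is 2 of 6, against 19.6% of all genes tested.

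Cyp3a13 had 15209, 16438 and 20208 normalised reads in PBC 7, 8 and 9, all above the highest control at 12299. The rise was 0.92 on the log2 scale (SE 0.22, adjusted p = 0.0194, limma). It was not called without PBC 9 (adjusted p = 0.102), with equal totals (0.0670) or with only the PBC and control libraries in the fit (0.0543). Cyp3a11 had 248381, 259944 and 226276 normalised reads in PBC 7, 8 and 9, each above the highest control at 221513. Its log2 change of 0.46 (SE 0.23, adjusted p = 0.213, limma) was not called, here or in any of 19 alternatives.

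Cyp3a16 had 2668, 1251 and 992 normalised reads in PBC 7, 8 and 9, between control 3 and the other controls. Its log2 change was -0.75 (SE 1.13, adjusted p = 0.715, limma), and this value hung on single controls. Without control 3 it was -2.21 (adjusted p = 0.0108), without control 2 -0.11 and without control 4 -0.04. Cyp3a44 had 17649, 3429 and 6280 normalised reads in PBC 7, 8 and 9. PBC 7 lay among the high controls, and PBC 8 and PBC 9 lay between control 3 and the other controls. Its log2 change was -0.47 (SE 0.65, adjusted p = 0.692, limma), -1.14 without control 3 and -1.11 without PBC 7.

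Set against each other, the models differed in Cyp3a44. Of the 6 members, 1 was called higher in PBC than in PSC and 0 lower by limma, against 1.11% and 1.13% of all genes tested. At an unadjusted p under 0.05 there were 2 higher and 1 lower. edgeR called 2 higher and 0 lower, and DESeq2 2 and 1. The median log2 difference of the members was 0.19, and the groups did not overlap for 4 of the 6, against 27.2% of all genes tested. For Cyp3a44 the difference was 4.61 on the log2 scale (SE 0.70, adjusted p = 0.00443, limma). All 3 PBC livers lay above all 3 PSC livers, and 19 of 19 alternatives called it, with the smallest value, 3.97, without PBC 7. Cyp3a16 differed by 4.28 (SE 1.21, adjusted p = 0.0880, limma) with no overlap. It was called without control 3 (0.000666), with only the PBC and PSC libraries in the fit (0.000695), with sample quality weights (0.00532), with edgeR (0.0470) and with DESeq2 (0.00390). Cyp3a11 was 0.54 lower in PBC on the log2 scale (-0.54, SE 0.24, adjusted p = 0.250, limma), again with no overlap, and was called with DESeq2 only (adjusted p = 0.0476). Cyp3a13, Cyp3a25 and Cyp3a59 were not called (log2 differences 0.16, 0.23 and -0.54).

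The make-up of the 6 matched members shifted in the PSC livers. Cyp3a41a and Cyp3a41b had no matched row, so the sums and shares leave them out and do not cover the whole subfamily. The summed level per kb was 90518 to 131339 in controls, 124136 to 137172 in PBC and 157519 to 194995 in PSC livers. Cyp3a11 made up 73.2%, 64.0%, 81.5% and 72.0% of that sum in controls 1 to 4, 77.8% to 80.8% in PBC and 86.8% to 88.8% in PSC livers. Cyp3a16 and Cyp3a44 together made up 9.02%, 18.7%, 1.47% and 9.14% in controls 1 to 4. In PBC 7, 8 and 9 their share was 7.76%, 1.80% and 3.04%, and in PSC livers 0.109% to 0.117%. The PSC livers lay above every other liver in the Cyp3a11 share and below every other liver in the joint share of the other pair. The share of Cyp3a25 was 12.6% ± 0.507 in controls (SD, n = 4), 11.0% ± 1.60 in PBC (n = 3) and 7.21% ± 1.29 in PSC livers (n = 3). A share also depends on the other members of the sum. The level of Cyp3a25 itself was not called in PSC (log2 change -0.10, adjusted p = 0.784, limma). The 6 members took 0.213% to 0.344% of all reads in controls, 0.274% to 0.390% in PBC and 0.410% to 0.475% in PSC libraries.

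**Figure D3:**
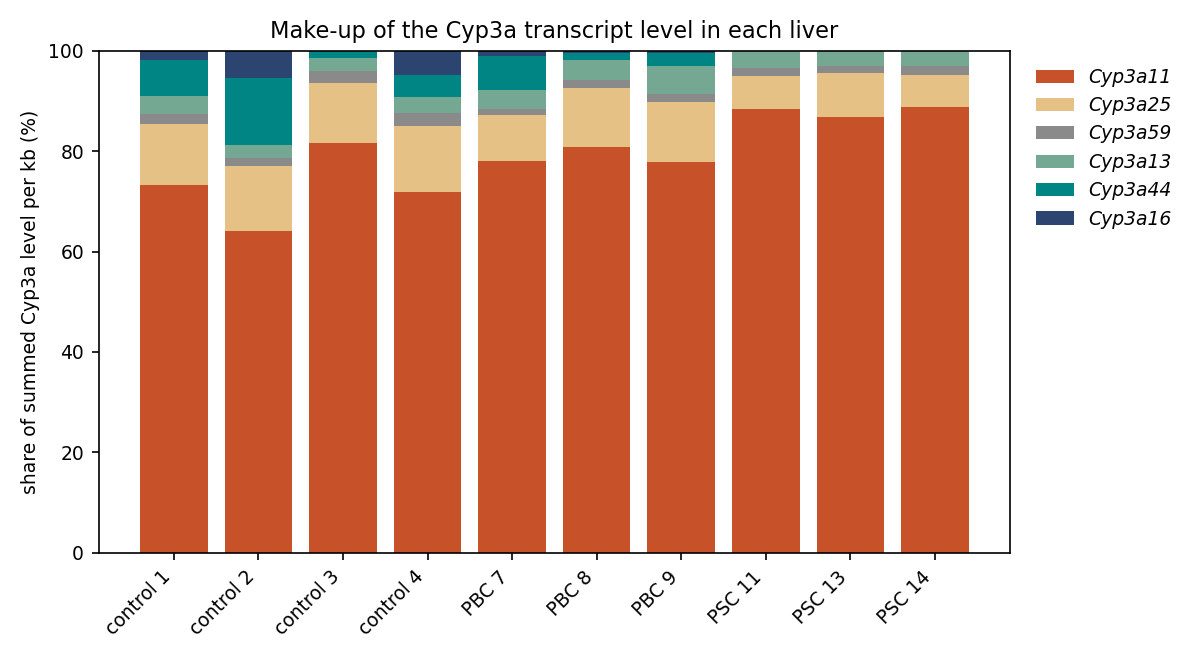
Share of each Cyp3a gene in the summed Cyp3a level per kb of transcript, one bar per liver. Cyp3a11 fills 64.0% to 81.5% of the bar in controls and 86.8% to 88.8% in PSC livers, and Cyp3a16 with Cyp3a44 shrinks to 0.109% to 0.117% there.

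Across the 10 livers Cyp3a16 and Cyp3a44 varied together (Pearson r of log2 values 0.92, and 0.84 over the 7 control and PBC livers). Cyp3a11 and Cyp3a44 gave r = -0.81 over 10 livers and -0.28 without the PSC livers, so the opposite relation rested on the PSC group. Cyp3a13 and Cyp3a11 gave 0.72 over 10 and 0.84 over 7 livers. These are descriptions over livers that share group and scaling. Among 10823 genes with a single symbol and a mean of at least 100, the pattern most like that of Cyp3a16 was Cyp2c37, a hepatic P450 of another family (r = 0.97), followed by Polr3c, Srp54a, Cul3 and Pdzk1 (0.94 to 0.96). For Cyp3a44 these were Sgsm1 (0.96), Cyp2c37 (0.96), Scnn1a, Sult5a1 and Gm21320 (0.94 to 0.95). Over the 7 control and PBC livers, r with Cyp3a44 was 0.91, 0.81, 0.85, 0.66 and 0.76 in this order. For the genes most like Cyp3a16 it was 0.86 to 0.95. For Cyp3a11 they were Tagln2 (0.98), Acot9, Mmp12, Smim3 and Anxa3 (0.97), of which Mmp12 is a macrophage elastase. For Cyp3a13 they were Ucp2 (0.99), Pld3, Asf1b, Fscn1 and Hmox1 (0.97 to 0.98). Rexo4 (0.95) led for Cyp3a25 and Acad12 (0.93) for Cyp3a59. Macrophage markers summed to 23137 to 45452 in controls, 76856 to 137870 in PBC and 58691 to 75699 in PSC livers, with 5 of 6 called higher in PBC and 3 of 6 in PSC. Neutrophil markers summed to 337 to 6197 in controls, 35776 to 108210 in PBC and 8624 to 15229 in PSC livers, with 6 of 6 called higher in both models (3 in PSC without any 1 PSC liver, and 3 with edgeR). T cell markers summed to 317 to 600 in controls, 1625 to 2101 in PBC and 365 to 442 in PSC livers, with 4 of 5 called higher in PBC. Stellate cell and fibroblast markers summed to 13668 to 21862 in controls, 15826 to 29243 in PBC and 52759 to 56810 in PSC livers, and the same number, 3 of 6, was called higher in each model. The part of such cells in the levels of Cyp3a13 and Cyp3a11 was not tested. Over all genes tested, 7.60% were called higher in PBC and 8.25% in PSC.

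Genes next to the members on the chromosome were compared within 100000 bases. Around Cyp3a13, 6 tested models with a symbol lay in this range. Of these, Pilra, Pilrb1 and Pilrb2, paired immunoglobulin-like receptors of myeloid cells, rose in PBC (log2 changes 1.22, 1.09 and 1.05, adjusted p = 0.00299, 0.00713 and 0.0235, limma). Pilra and Pilrb1 also rose in PSC (0.91 and 0.90, adjusted p = 0.0120 and 0.0163), and both calls were lost without PSC 11 or PSC 14 (highest adjusted p 0.0680 and 0.0762). Pilrb2 was lost in PBC in 4 of 19 alternatives. Azgp1, a secreted zinc-binding glycoprotein on the same stretch, was at 76681 to 94915 normalised reads in all livers with log2 changes of -0.02 and 0.03. Around the cluster, Rnf6 and Cyp3a57 were the tested models with a symbol, and neither was called (lowest adjusted p 0.313, Rnf6 in PSC). Cyp3a57, a further gene of the subfamily that is no member here, was at 0 to 27.2 normalised reads.

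Transcripts of the receptors known to activate Cyp3a11 were not called higher in either model. Of 15 receptors and hepatocyte transcription factors, 14 were tested, and the vitamin D receptor Vdr was at 0 to 3.23 normalised reads. In PSC 1 was called higher and 3 lower (median log2 change -0.49, all genes 0.06), and in PBC 1 was called, higher (median -0.35, all genes 0.01). Over all genes tested, 8.25% were higher and 6.48% lower in PSC, and 7.60% higher in PBC. Nr1i2 (PXR) had 4589, 4559, 4447 and 5608 normalised reads in controls 1 to 4, 3275, 3311 and 4145 in PBC and 3246, 3701 and 4105 in PSC livers. Both models lay below every control, but the log2 changes of -0.43 in PBC (SE 0.17, adjusted p = 0.136) and -0.38 in PSC (SE 0.17, adjusted p = 0.161, limma) were not called. Nr1i3 (CAR) had 9543, 8741, 9579 and 13081 normalised reads in controls 1 to 4, 8236, 5584 and 6356 in PBC and 4447, 7524 and 7325 in PSC livers. Again both models lay below the controls, with log2 changes of -0.61 (SE 0.23, adjusted p = 0.110) and -0.69 (SE 0.23, adjusted p = 0.0600, limma), the second called in 4 of 19 alternatives.

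Among the other factors, Cebpb, a factor of the acute phase response, rose by 2.15 in PBC and 1.60 in PSC on the log2 scale (adjusted p = 0.000649 and 0.00370, limma). The glucocorticoid receptor Nr3c1 fell by 1.83 in PSC (adjusted p = 0.00993, and 0.0576 without PSC 14). The coactivator Ppargc1a fell by 1.38 in PSC (adjusted p = 0.0413) and the hepatocyte regulator Hnf4a fell by 0.91 (adjusted p = 0.0488). The call of Ppargc1a held in 11 and that of Hnf4a in 8 of 19 alternatives, and both were lost without any 1 PSC liver (highest adjusted p 0.156 and 0.174). Over the list, 0 to 4 factors were called lower in PSC and 0 to 3 in PBC (3 without PBC 8) when 1 library was left out.

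Of 22 other listed targets of PXR and CAR, 21 were tested. In PBC 7 rose and the other 14 were not called (median log2 change 0.71, all genes 0.01), and in PSC 5 rose and 2 fell (median 0.18, all genes 0.06). Over all genes tested, 7.60% rose in PBC, and 8.25% rose and 6.48% fell in PSC. Between the models, 4 were called higher in PBC (Cyp2c29, Cyp2b10, Cyp2c50 and Cyp2c37), against 1.11% of all genes tested, and 17 were not called. Without PSC 13 or PSC 14 the count was 2. The row of Cyp2c29 is a merged gene model that also carries the symbol Cyp2c53-ps, so its values are not those of Cyp2c29 alone. Cyp2b10, the classic CAR target, had 848, 306, 636 and 1265 normalised reads in controls 1 to 4, 8928, 13539 and 12516 in PBC and 2042, 684 and 1351 in PSC livers. All PBC livers were above all others. Its log2 change was 4.08 in PBC (SE 0.43, adjusted p = 0.000123) and 0.87 in PSC (SE 0.43, adjusted p = 0.194, limma), and the models differed by 3.21 (SE 0.46, adjusted p = 0.00318).

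Cyp2c29 and Cyp2c50, further xenobiotic P450 genes, rose in PBC by 1.37 and 1.18 (adjusted p = 0.00219 and 0.00209), and the basolateral efflux pump Abcc3 rose by 0.91 (adjusted p = 0.00420, limma). In PSC, Abcc3 rose by 1.08, the glutathione transferase Gsta1 by 4.63 and the stress gene Gadd45b by 2.29 (adjusted p = 0.00118, 0.00122 and 0.00606, limma). With edgeR the value of Gsta1 was 3.81. Cyp2c37, the gene whose pattern was most like that of Cyp3a16, fell by 1.40 in PSC (SE 0.28, adjusted p = 0.00554), with 26180, 25568 and 26071 normalised reads in the PSC livers against 86487, 84153, 36803 and 82339 in controls 1 to 4. Control 3 was again the lowest control. A gene ranked by its likeness to Cyp3a16 over these same livers tends to share both features, so they are no separate observation. Without PBC 9 the number of list genes called higher in PBC was 4. Without any 1 PSC liver, or without control 1 or control 4, 1 was called lower in PSC.

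**Figure D4:**
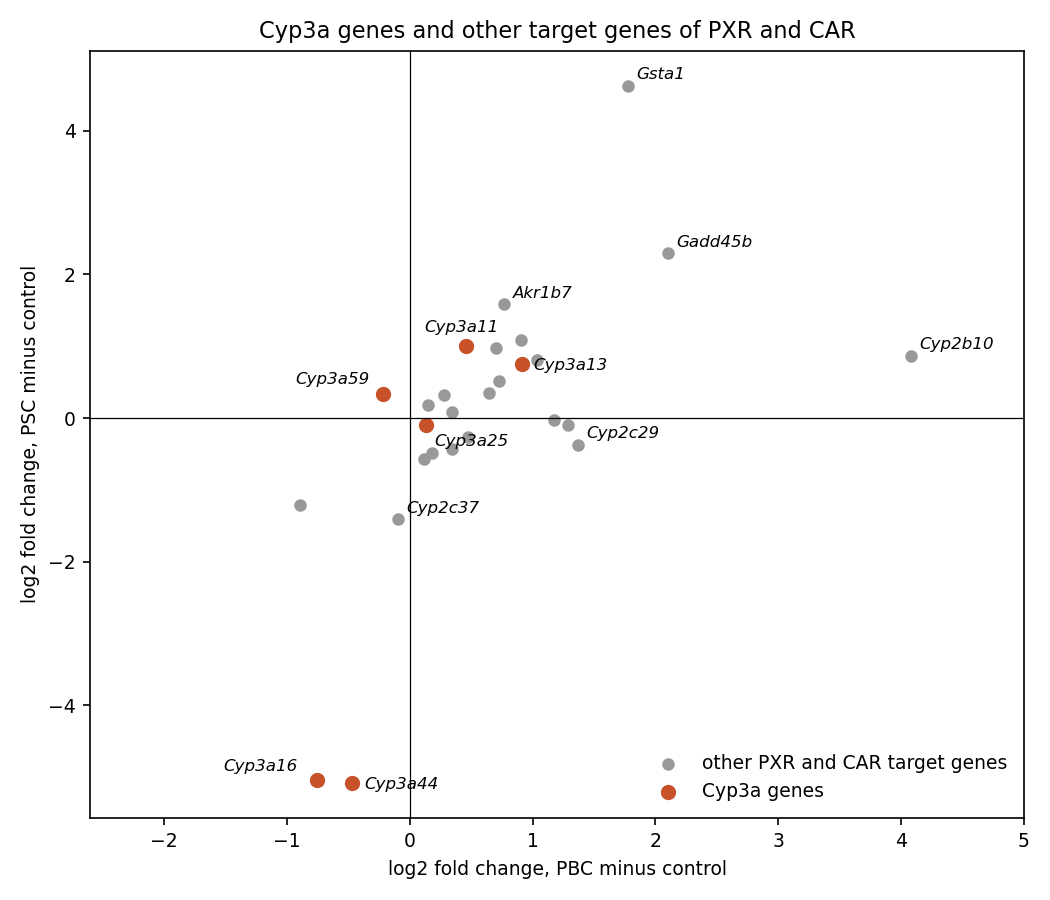
Log2 fold change in PBC (x axis) and PSC (y axis) against control for the 6 Cyp3a genes (orange) and 21 other target genes of PXR and CAR (grey). Both axes use the same 4 control livers. Cyp2b10 lies at 4.08 on the x axis, Gsta1 at 4.63 on the y axis, and Cyp3a16 and Cyp3a44 lie alone near -5 on the y axis.

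P450 enzymes need electrons and heme, and DDC is known to block the last step of heme synthesis. Of 17 genes of electron and heme supply, 1 rose and 4 fell in PSC (median log2 change 0.03), and 1 rose in PBC with 16 not called (median -0.05). Over all genes tested, 8.25% rose and 6.48% fell in PSC, and 7.60% rose and 2.34% fell in PBC. The heme-degrading Hmox1 rose in both, by 1.63 in PBC and 1.46 in PSC (adjusted p = 0.00362 and 0.00559, limma). In PSC the coproporphyrinogen oxidase Cpox fell by 1.30 (adjusted p = 0.00776), ferrochelatase Fech by 0.82 (0.0309) and the cytochrome b5 gene Cyb5b by 0.70 (0.0322). Left out singly, 5 of the libraries (control 1, control 4 and each PSC liver) brought the count of falls to 0, 1 or 2. The reductase Por was not called, with log2 changes of 0.49 in PBC and 0.20 in PSC (adjusted p = 0.345 and 0.714). Cyb5a, also a cytochrome b5 gene, was not called either, unlike Cyb5b in PSC. Its log2 changes were -0.27 in PBC and -0.02 in PSC (adjusted p = 0.482 and 0.966, limma).

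The falls of Cyp3a16 and Cyp3a44 stood beside falls of other female-biased liver genes. Of 15 such genes, 12 fell in PSC and 3 were not called (median log2 change -2.19, all genes 0.06). Among those not called, Atp6v0d2 was higher in every PSC liver than in any control (log2 change 1.38, adjusted p = 0.0612, limma). In PBC 4 fell, among them Fmo2, Hao2 and Sult3a1, and 11 were not called (median -0.81). The share called lower over all genes tested was 6.48% in PSC and 2.34% in PBC. Sult3a1, a sulfotransferase, had 24834, 19743, 16259 and 9049 normalised reads in controls 1 to 4, 11961, 3070 and 3661 in PBC and 105, 154 and 199 in PSC livers. PSC livers were far below the rest. It fell by 6.79 in PSC (SE 0.44, adjusted p = 1.26e-06, limma). The P450 genes Cyp2c40 and Cyp17a1 fell by 2.19 and 2.41 (adjusted p = 0.000720 and 0.00135, limma). The PSC count of falls was 11 to 14 over the alternatives. With DESeq2, with sample quality weights and without control 4, 1 gene of the list was called higher in PSC. The PBC count was 1 without PBC 7, 2 without PBC 8 or PBC 9, and 7 with DESeq2. Between the models, 5 of the 15 were called higher in PBC, against 1.11% of all genes tested, and 10 were not called. That count was 1 without PBC 7, PSC 13 or PSC 14, and 2 without PBC 9 or PSC 11.

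Male-biased genes moved in both directions. Of 10 listed, 7 were tested, and in PSC 1 rose and 3 fell. For this and the growth hormone list, the shares over all genes tested were 8.25% higher and 6.48% lower in PSC. In PBC they were 7.60% higher and 2.34% lower. Mup20, a urinary pheromone-binding protein, had 16556, 22177, 28738 and 10753 normalised reads in controls 1 to 4 and 525359, 457218 and 515433 in the PSC livers, a rise of 4.76 on the log2 scale (SE 0.29, adjusted p = 1.20e-06, limma). The other 3 were Elovl3, a fatty acid elongase (-2.58, adjusted p = 0.00107), Hsd3b5, a steroid dehydrogenase (-4.20, 0.0172), and Slco1a1, an organic anion carrier (-4.45, 0.0193). For the last pair control 4 was close to the PSC livers. Hsd3b5 had 29.2 normalised reads in control 4 and 11.3 to 26.3 in PSC, and Slco1a1 160 and 80.9 to 125. Without control 4 the changes were -5.33 and -5.69. The call of Hsd3b5 was lost without PSC 11 or PSC 13, and that of Slco1a1 without control 1, control 2 or any 1 PSC liver (highest adjusted p 0.0771). Of 10 growth hormone signalling genes, the receptor Ghr and the repressor Bcl6 fell in PSC (-0.82 and -1.19, adjusted p = 0.0262 and 0.0400), and neither call held when any 1 PSC liver was left out (highest adjusted p 0.115 and 0.145). Without control 4 the adjusted p of Ghr was 0.0507, the call of Bcl6 was also lost without any 1 of controls 1, 2 and 4, and without PBC 8 the list had 4 genes called lower. In PBC limma called 0 of the 7 male-biased and 0 of the 10 growth hormone genes. At an unadjusted p under 0.05, 1 and 2 were lower, edgeR called none and DESeq2 called 1 growth hormone gene lower. Without control 4, limma called 2 male-biased and 3 growth hormone genes lower in PBC.

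**Figure D5:**
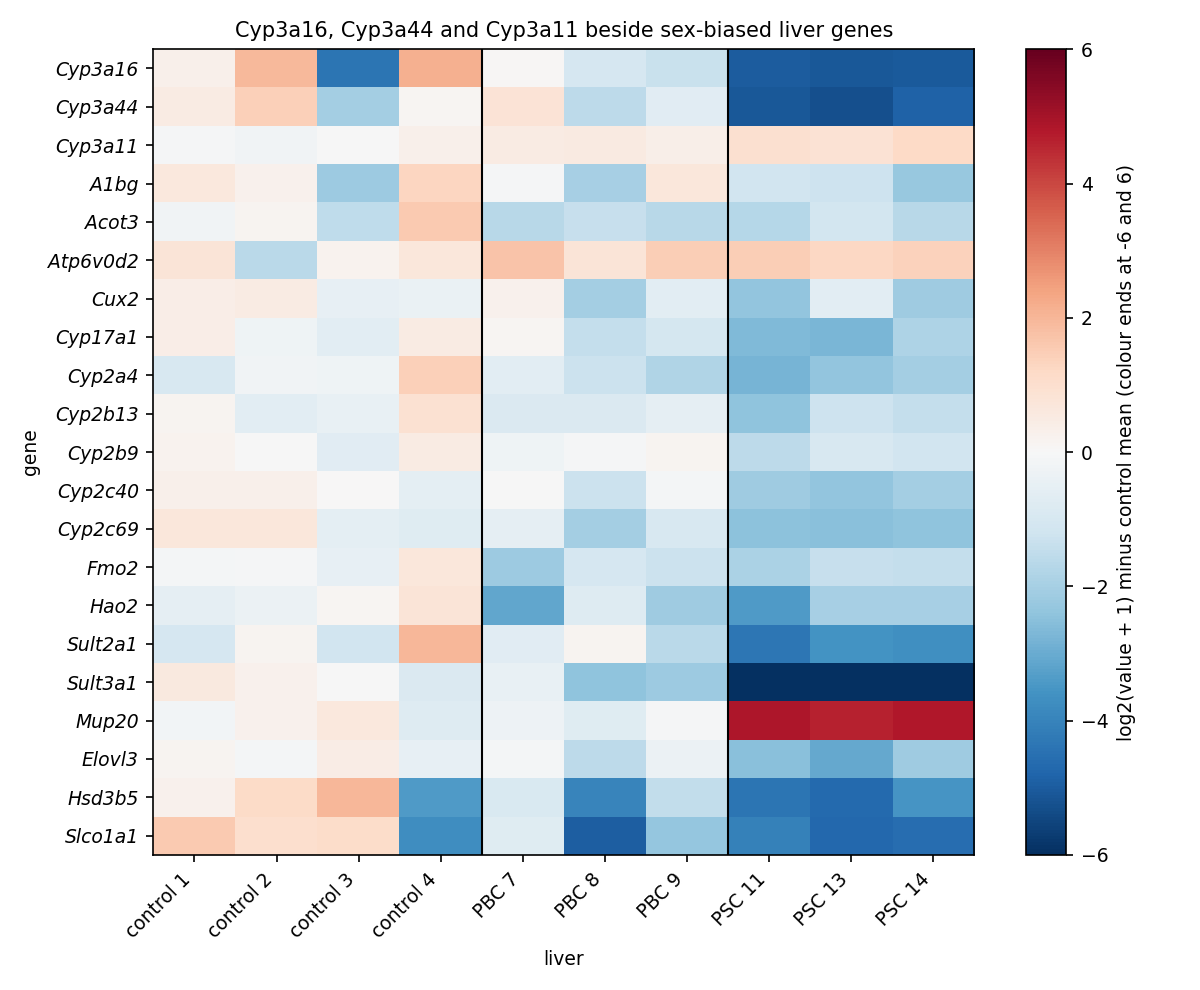
Log2(value + 1) of Cyp3a16, Cyp3a44, Cyp3a11, 14 of the female-biased genes and 4 male-biased genes (the lowest 4 rows) in each liver, relative to the control mean. Colours end at -6 and 6, and lines part controls, PBC and PSC. The PSC columns are blue for the female-biased genes shown except Atp6v0d2. The male-biased genes shown are those called in PSC. Of these, Mup20 is red there, and Elovl3, Hsd3b5 and Slco1a1 are blue.

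Inflammatory cytokines are known to lower many P450 mRNAs in liver. Of 13 genes of the inflammatory response, 9 rose in PBC and 4 were not called (median log2 change 1.59), and 6 rose in PSC and 7 were not called (median 1.83). For these and the lists below, the shares over all genes tested were 7.60% higher and 2.34% lower in PBC. In PSC they were 8.25% higher and 6.48% lower. The acute phase genes Lcn2 and Saa1 rose by 6.13 and 4.28 in PBC and by 7.05 and 5.88 in PSC (highest adjusted p 0.000198, limma). Lcn2 stood at 261 to 1363 normalised reads in controls, 20964 to 55577 in PBC and 33612 to 114643 in PSC livers. Of 10 bile acid genes, 2 rose (Abcb4 and Slc51b) and 2 fell (Slco1b2 and Cyp39a1) in PSC and 1 fell (Slco1b2) in PBC. No bile acid gene was called in PSC without PSC 14 or without control 1, and the call in PBC was lost without any 1 of 7 libraries (all but controls 2 and 3 and PBC 8). The bile acid synthesis gene Cyp7a1 was not called in either. Of 10 pericentral and 10 periportal hepatocyte genes, 1 and 3 rose in PBC, and no periportal gene was called higher without PBC 7 or PBC 9, and 5 were without PBC 8. In PSC limma called 0 of either. At an unadjusted p under 0.05, 1 pericentral gene was higher and 4 were lower, and 1 periportal gene was higher. edgeR called 0, and DESeq2, as well as limma without control 3, called 3 pericentral genes lower. Cholangiocyte markers summed to 7637 to 13149 in controls, 10039 to 13538 in PBC and 53802 to 94714 in PSC livers, and the part of a changed cell mix in the Cyp3a levels was not tested.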

How the data were processed

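Liver RNA of 10 mice was sequenced from stranded poly(A) libraries as paired reads of 75 bases, per the labels' protocols. The submitters' processing notes name mm10, STAR 2.4.0, DESeq2, SAMtools, FastQC and Picard. No counting tool is named. The deposited signal values are reads per gene model that the authors normalised with DESeq2. In each library 18000 to 21206 values above 0 were checked, leaving out the highest values. All of these were whole multiples of 1 step (tolerance 0.1 reads, 100% of values checked), so whole reads could be recovered. The highest values, among them those of Cyp3a11, were rounded to whole reads without this check. The deepest library had 2.49 times the reads of the shallowest.

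limma, with the prior variance following the mean, was fitted to log2(value + 1) of all 10 libraries at once, for the 18390 genes at 10 or more in 3 or more libraries. The fit was also run on simulated data, in which the spread depended on mean level alone and was alike in all groups. That simulation did not cover genes as uneven in spread as Cyp3a16 and Cyp3a44. p-values measure the spread between mice. The alternatives were edgeR and DESeq2 on recovered reads, TMM scaling, equal totals, 2 other filters, a pseudocount of 10, sample quality weights, only the compared groups, and each library left out. Levels were compared between genes per kilobase of the longest GENCODE M21 transcript. The software was limma 3.58.1, edgeR 4.0.16 and DESeq2 1.42.0 in R 4.3.3.

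The members and gene lists were chosen with earlier results of these data known. Named are the members, the receptors and factors, up to 4 genes per other list with the smallest adjusted p, the 5 genes most like each member, and genes within 100000 bases. Por, Cyb5a, Cyp7a1, Atp6v0d2 and, in PSC, Cyp2b10 were named after their values were seen. The values of 1 female-biased gene are not reported here, though the counts include it.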

Additional observations from a re-analysis of the deposited data

How the results depend on the processing

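No paired analysis was possible because the 3 groups share no replicate numbers. The falls of Cyp3a16 and Cyp3a44 in PSC and the higher Cyp3a44 in PBC than in PSC were called in all 19 alternatives. The summed level of the 6 members moved by less than the spread between livers under TMM scaling and equal totals. Both settings rescale a whole library, so they cannot change the shares within it. Leaving out 1 library cannot move a group mean by more than the SD of its livers, so it could not test the sum or the shares. Of the 6 members, 0 were called higher in PBC with equal totals or with only the compared groups (0 to 1 with a library left out), and 0 to 1 lower with a library left out. In PSC 0 were higher with no filter, 1 with equal totals, and 0 to 2 with a library left out. Between the models, 2 members were higher in PBC with edgeR, DESeq2, only the compared groups and sample quality weights (1 to 2 with a library left out), and 1 was lower with DESeq2. Uncalled values that changed sign were Cyp3a44 in PBC (0.0024 without control 2, 0.0707 without PBC 8, from -1.14 to 0.0707 with a library left out) and Cyp3a25 in PSC (0.0223 with sample quality weights, 0.0301 without control 4, from -0.18 to 0.0301 with a library left out). Counts over all genes moved more. On the recovered reads edgeR called 1225 genes higher and 345 lower in PBC, 1436 and 1176 in PSC, and 203 and 213 in PBC against PSC. Genes higher in PBC numbered 853 with equal totals, 776 with only the compared groups and 2425 with sample quality weights, and 673 to 1795 with a library left out. Genes lower in PBC numbered 909 with DESeq2, 96, 1803 and 63 to 1569 (compared groups, weights, a library left out). Genes higher in PSC numbered 3899 with weights and 680 to 1911 with a library left out. Genes lower in PSC numbered 669 with equal totals, 1929 with DESeq2, 1862 with only the compared groups, 3404 with weights and 245 to 1902 with a library left out. Genes higher in PBC than in PSC numbered 128 with equal totals, 590 with DESeq2, 658 with weights and 61 to 260 with a library left out. Genes lower in PBC than in PSC numbered 334 with a pseudocount of 10, 623 with DESeq2, 701 with weights and 43 to 303 with a library left out. The cause of these shifts was not tested. The number of livers (3 or 4 a group) and the spread of Cyp3a16 and Cyp3a44 among controls limit the precision of these changes.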
